A study of Ambystoma mexicanum with 198 samples.

Results

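The Krüppel-like factors KLF2, KLF3, KLF4 and KLF10 were followed through 28 days of axolotl forelimb regeneration. Members were taken by gene symbol from the array's probe annotation, which gave 1 probe for each gene, so 4 of the 20035 non-control probes and 4 of the 8639 named genes are described: axo15663-f_at for KLF2, axo15852-f_at for KLF3, axo09873-f_at for KLF4 and axo11262-f_at for KLF10. RNA came from the outermost 1 mm of the forelimb of juvenile axolotls (Ambystoma mexicanum) of no stated genotype, amputated through the middle of the zeugopod (the forearm) under benzocaine anesthesia, with the bones left untrimmed. The samples fall into 20 groups by time, 19 of them from 0.5 to 28 days post-amputation (DPA) and the last the day 0 group taken at amputation, which the later groups were compared with. There were 198 arrays, 10 at every time point except 16 and 28 DPA, which had 9. By the study's account the animals differed in body size and came from several genetic crosses.

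Krüppel-like factors are transcription factors with zinc fingers at the carboxyl end that bind GC-rich and CACCC sequences, and they share this DNA-binding domain with the SP family. In mammals several of them are induced within hours by serum, shear stress, cytokines or wounding, and they act on the balance between proliferation and differentiation. KLF2 is known in mammals for quiescence of endothelial cells and T cells, KLF3 is mainly a repressor that recruits CtBP, KLF4 is needed for the barrier of the skin and is a factor used to reprogram somatic cells to pluripotency, and KLF10 is induced early by TGF-beta.

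Signals are log2 probe intensities on an array that measures 3′ transcript sequence. Levels of different probes cannot be compared, so the order of values below is always within a gene. The tissue was a mixture of cell types, and a change in cell numbers and a change in RNA per cell cannot be told apart in it. Array medians lay between 5.70 and 5.91, the correlation between arrays within a time point was 0.962 to 0.994, and the number of arrays limits the precision. Nothing in the labels says which limbs came from the same animal, so p-values measure the spread between these samples. The labels also carry letter codes whose meaning is not stated. Replicates 1 to 5 and replicates 6 to 10 carried different codes at every time point, and within each set the codes changed from 2 to 3 DPA and again from 18 to 20 DPA. Those of replicates 6 to 10 also changed from 9 to 10 DPA. Day 0 to 2 DPA therefore share codes within each set, and comparisons of day 0 with 3 to 18 DPA do not.

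All 4 genes were higher at 0.5 DPA than at day 0, by 2.31-fold for KLF10 to 3.53-fold for KLF3. The study named these genes among transcription factors that increased early, on the same samples, so their direction here is not independent evidence. The signals of KLF3 and KLF4 were low, with day 0 means of 4.39 and 5.05, below the median of every array. Over all arrays, 25% of probes averaged under 4.18. Low signals can understate a change, so folds should not be ranked between probes.

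KLF3 had a lowest, median and highest log2 intensity of 5.81, 6.23 and 6.66 at 0.5 DPA, against 4.09, 4.32 and 4.81 at day 0. Every 0.5 DPA array lay above every day 0 array. The difference was 1.82 ± 0.11 (SE, n = 10 each; limma adjusted p = 6.46e-11). KLF2 gave 9.90, 10.81 and 11.12 at 0.5 DPA, against 8.33, 8.86 and 9.72 at day 0, again without overlap. It rose by 1.71 ± 0.19 (SE; limma adjusted p = 1.03e-06), or 3.26-fold.

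KLF4 gave 6.08, 6.73 and 7.45 at 0.5 DPA, against 4.59, 4.96 and 5.71 at day 0. These groups did not overlap either, and the difference was 1.62 ± 0.18 (SE; limma adjusted p = 9.34e-07). KLF10 gave 10.26, 10.97 and 11.14 at 0.5 DPA, against 8.58, 9.86 and 10.37 at day 0. Of its 10 arrays at 0.5 DPA, 9 lay above the highest day 0 array, and the lowest fell inside the day 0 range. Its difference was 1.21 ± 0.19 (SE; limma adjusted p = 1.64e-04).

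A probe was called when the Benjamini-Hochberg adjusted p over all 20035 probes was under 0.05 and the log2 difference was at least 0.58. That limit is a change of about 1.5-fold. By this rule 2.8% of all probes rose at 0.5 DPA, and 4 of the 4 KLF probes did. Each exceeded the differences of 98.7% to 99.3% of probes. The study named these genes for their increase at this time in these samples, so the count and the ranks are not separate support. The difference at 0.5 DPA was 1.93 for KLF2, 1.77 for KLF3, 1.75 for KLF4 and 0.88 for KLF10 in replicates 1 to 5. In replicates 6 to 10 it was 1.48 for KLF2, 1.87 for KLF3, 1.49 for KLF4 and 1.54 for KLF10. The gap between the sets was widest for KLF10, at -0.66 ± 0.33 (SE), and passed the limma interaction test for none of the 4 (adjusted p = 0.888 to 0.993), a test that 1 of 20035 probes passed.

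**Figure D1:**
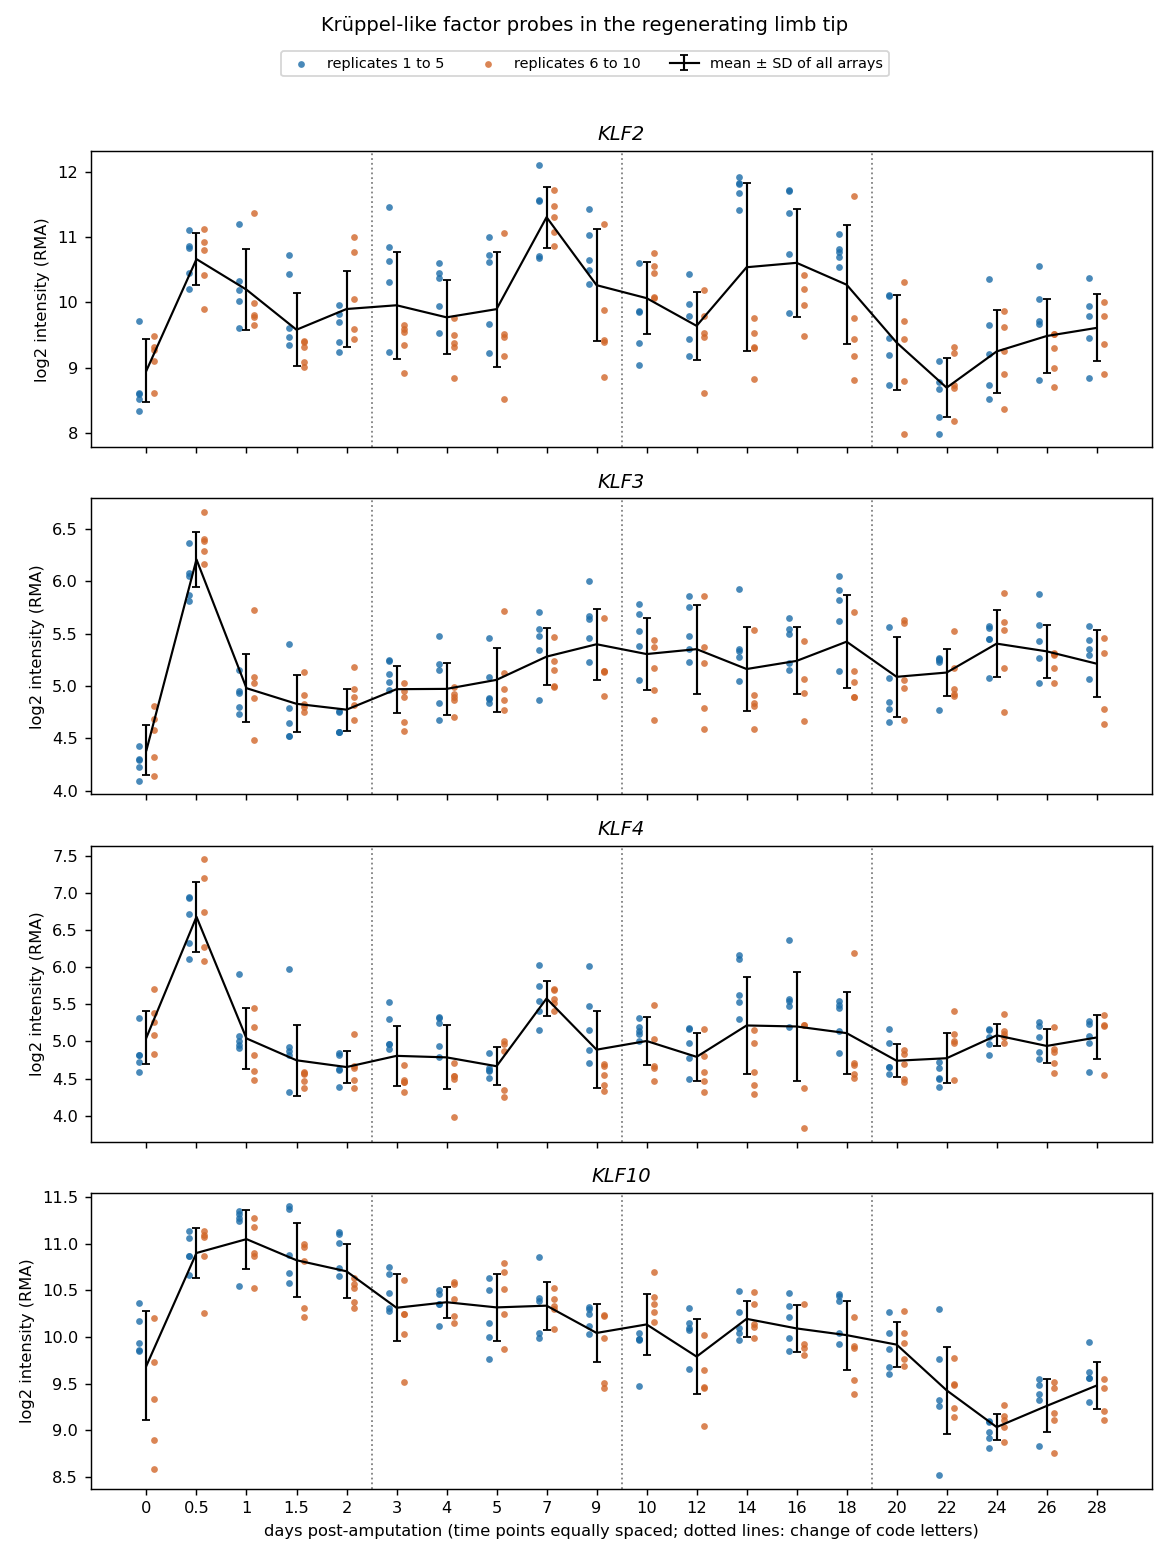
Log2 intensity of each KLF probe in every array (points, coloured by replicate set) at the 20 time points, equally spaced, with the mean ± SD of all arrays at a time point as the black line. Dotted lines mark changes of the sample codes, the middle line in replicates 6 to 10 only. KLF3 and KLF4 stand highest at 0.5 DPA, KLF2 at 7 DPA and KLF10 at 1 DPA, and the replicate sets of KLF2 separate at 14 DPA.

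After 0.5 DPA, KLF4 and KLF3 fell within the next sampling interval, while the changes of KLF2 and KLF10 did not pass and both were still above day 0. KLF4 gave a lowest, median and highest intensity of 4.49, 4.98 and 5.90 at 1 DPA, all under the lowest 0.5 DPA array. It fell by 1.64 (limma adjusted p = 1.26e-05), and its mean of 5.04 ± 0.41 at 1 DPA stood beside 5.05 ± 0.36 at day 0 (SD, n = 10 each). KLF3 gave 4.49, 4.94 and 5.73 at 1 DPA and fell by 1.23 (limma adjusted p = 4.02e-06), which left it 0.59 above day 0. Only 0.784% of all probes fell in this interval.

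KLF2 was 0.47 lower at 1 DPA than at 0.5 DPA, a difference that did not pass (limma adjusted p = 0.334). KLF10 was 0.15 higher and reached its highest mean, 11.05 ± 0.32 (SD, n = 10), at 1 DPA, where all of its arrays were above all day 0 arrays. From 0.5 to 2 DPA, KLF4 fell by 2.02 (limma adjusted p = 1.23e-08), KLF3 by 1.43 (limma adjusted p = 4.24e-09) and KLF2 by 0.76 (limma adjusted p = 0.0124), in a comparison where 3.96% of probes fell. The KLF2 call was lost in a fit of all 198 arrays (limma adjusted p = 0.0545) and in replicates 6 to 10 alone, which differed by -0.46 (limma adjusted p = 0.476). KLF10 at 2 DPA differed from 0.5 DPA by -0.20 (limma adjusted p = 0.295). All of these time points share codes within each replicate set.

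The comparisons with day 0 gave a different profile for each gene. KLF3 was called higher in 17 of 19, missing 1.5 and 2 DPA, when its differences were smallest but still above 0. At 3 and 4 DPA its differences, 0.581 and 0.584, lay barely above the limit of 0.58. Its adjusted p was under 0.05 in all 19. KLF2 was called higher in 15 of 19, at 0.5 to 18 DPA and again at 28 DPA. KLF10 was called higher in 8, the unbroken run from 0.5 to 7 DPA, and lower in 1, at 24 DPA. KLF4 was called in 1 of 19, at 0.5 DPA. Among all probes, 1.79% rose in 17 or more comparisons and 3.54% in 15 or more, 1.48% rose without a gap from 0.5 to 7 DPA, and 0.135% were called at 0.5 DPA alone, as an increase. The share of all probes that rose over day 0 was 4.95%, 6.12% and 6.7% at 1, 1.5 and 2 DPA, and 8.87%, 8.56%, 9.61%, 9.39% and 10.5% at 3, 4, 5, 7 and 9 DPA. It was 11.7% and 11.3% at 10 and 12 DPA, 11% at both 14 and 16 DPA, 11.6% at both 18 and 20 DPA, and 11.8%, 12.9%, 11.7% and 10.7% at 22, 24, 26 and 28 DPA.

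**Figure D2:**
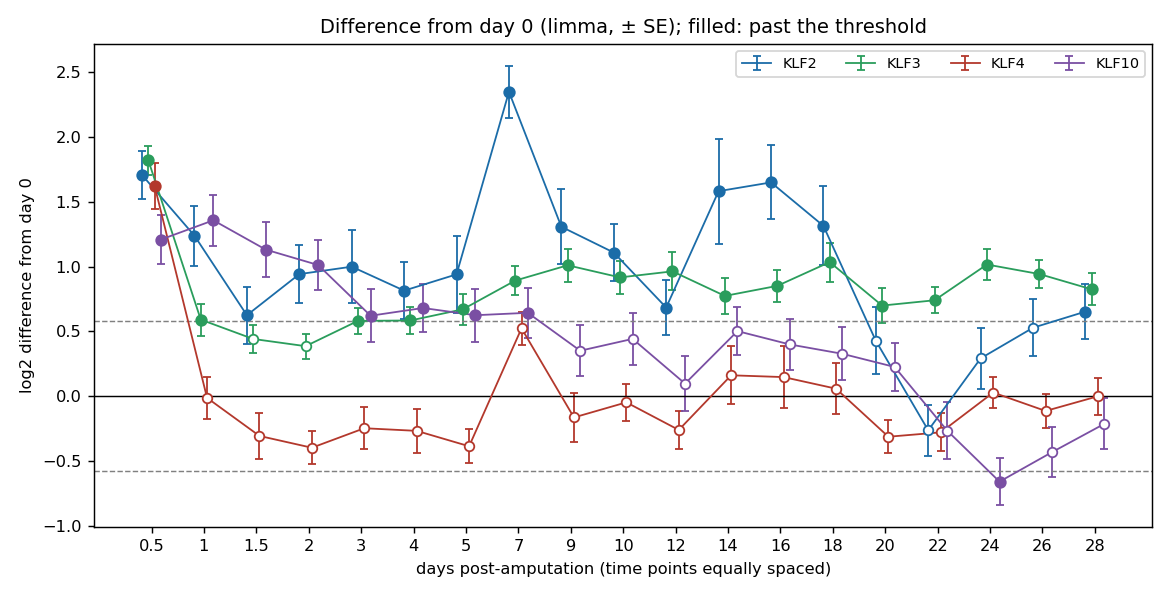
Log2 difference from day 0 of the 4 KLF probes at each later time point (limma estimate ± SE). Filled points passed the threshold, and dashed lines mark a log2 difference of 0.58 in either direction. At 0.5 DPA the 4 genes lie between 1.21 and 1.82, and at 7 DPA KLF2 reaches 2.35 and KLF4 0.52.

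When the levels of each gene were placed in order, most neighbours were closer than their spread. Of the 19 neighbouring pairs in the order of time point means, the gap exceeded 1 pooled SD in 2 for KLF3 and KLF10 and in 1 for KLF2 and KLF4. KLF4 had its widest gap between 0.5 DPA and the next highest time, 7 DPA, at 1.10 log2 units. KLF3 was separated by 0.78 at 0.5 DPA from its next highest time, 18 DPA, and KLF2 by 0.64 at 7 DPA from its next highest, 0.5 DPA. In KLF10 the widest gap, 0.33, lay between 2 and 4 DPA.

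KLF2 and KLF4 also stood high at 7 DPA. KLF2 had its highest mean of the series there, 11.30 ± 0.47 against 8.95 ± 0.48 at day 0 (SD, n = 10 each). Its lowest, median and highest arrays were 10.68, 11.39 and 12.11 at 7 DPA, against 8.33, 8.86 and 9.72 at day 0, so that the groups did not overlap. The difference was 2.35 ± 0.20 (SE; limma adjusted p = 6.77e-09), a 5.10-fold increase that exceeded those of 99.6% of probes. KLF4 at 7 DPA was 0.52 above day 0, short of the fold threshold.

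Against its neighbours in time, KLF4 was the gene that passed. It gave a lowest, median and highest intensity of 5.15, 5.56 and 6.03 at 7 DPA, against 4.26, 4.63 and 5.01 at 5 DPA and 4.34, 4.70 and 6.01 at 9 DPA. All arrays at 7 DPA were above all arrays at 5 DPA, while 9 DPA overlapped. KLF4 rose between 5 and 7 DPA by 0.91 (limma adjusted p = 6.97e-04), in an interval where 0.02% of probes, or 4, rose. The others were FOS (2.04), NR4A1 (0.83) and axo07375-f_at (1.58), a probe without a symbol in the array's annotation that the study lists as CYR61, a secreted matrix protein. Against the mean of 5 and 9 DPA it was higher by 0.80 ± 0.14 (SE; limma adjusted p = 0.00752). Replicates 6 to 10 alone kept this call, at 0.97 (limma adjusted p = 0.00622), and replicates 1 to 5 alone did not, at 0.63 (limma adjusted p = 0.687). The increase between 5 and 7 DPA did not pass within either set, with differences of 0.93 for replicates 1 to 5 (limma adjusted p = 0.0907) and 0.89 for replicates 6 to 10 (limma adjusted p = 0.306).

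The comparison of 7 DPA with the mean of 5 and 9 DPA called 9 probes, 0.0449% of those tested, all higher at 7 DPA. Of these, 3 have no symbol in the annotation, among them axo07375-f_at (1.30) and axo21212-f_at (1.22), which the study lists as C8orf4. The other 6 were FOS, EGR1, ZFP36, NR4A1, KLF4 and DUSP1. Besides KLF4 these are immediate early genes, which cells transcribe within minutes to hours of a stimulus without making new protein. FOS, a subunit of the AP-1 transcription factor, was higher by 2.31, EGR1, a zinc finger transcription factor, by 1.71, and ZFP36, which promotes decay of AU-rich mRNAs, by 0.86. NR4A1, an orphan nuclear receptor, was higher by 0.84 and DUSP1, a phosphatase of MAP kinases, by 0.64. An increase of early genes at 7 DPA, FOS, EGR1 and CYR61 among them, was described by the study on these samples. The comparison was made for that reason, so the early genes called here are not independent evidence.

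KLF2 was higher by 1.23 ± 0.28 in the same comparison but did not pass (SE; limma adjusted p = 0.152). Its arrays spread more at the neighbouring times, with an SD of 0.88 at 5 DPA and 0.86 at 9 DPA, against 0.47 at 7 DPA. Its call depended on the fit, since a model of all 198 arrays gave an adjusted p of 0.0111 by limma. The KLF3 and KLF10 differences in this comparison were 0.05 and 0.16 and did not pass.

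**Figure D3:**
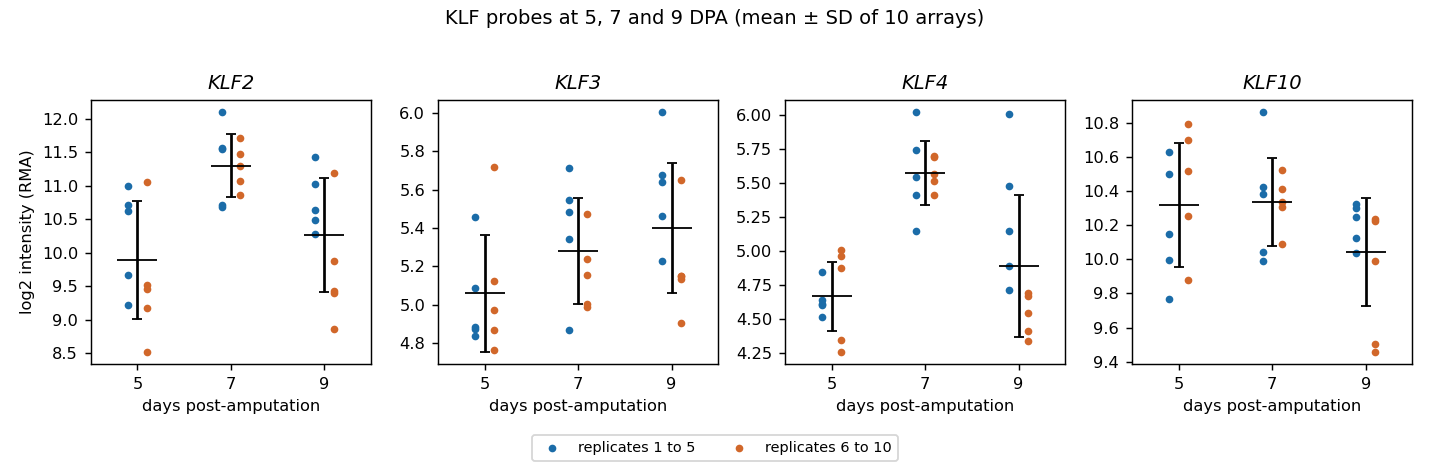
Log2 intensity of the 4 KLF probes in each array at 5, 7 and 9 DPA, coloured by replicate set, with the mean ± SD of 10 arrays in black. All KLF4 arrays at 7 DPA lie above all of those at 5 DPA, KLF2 is highest on average at 7 DPA, and KLF3 and KLF10 overlap throughout.

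Skeletal muscle transcripts were read over the same times. Of 13 muscle genes with a probe none was called, and their median difference between 7 DPA and the mean of 5 and 9 DPA was 0.75, against -0.0016 over all probes. The mean over these genes had a median over arrays of 12.12 at 5 DPA, 11.31 at 7 DPA and 10.56 at 9 DPA, where the lowest array was at 5.36. By these medians over arrays, muscle transcripts at 7 DPA stood between those of the neighbouring times. The KLF4 mean at 7 DPA stood above its means at both of those times. In the comparison itself the KLF4 difference was 0.80, beside the muscle median of 0.75. The part of muscle content in the KLF4 values was not tested.

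The replicate sets gave different accounts of KLF2 and KLF4 in the middle of the series. At 14 DPA the 5 arrays of replicates 1 to 5 gave KLF2 intensities between 11.41 and 11.92, and those of replicates 6 to 10 gave 8.82 to 9.75. The sets did not overlap and differed by 2.38 ± 0.16 (SE, n = 5 each; limma adjusted p = 4.39e-04), at a time point where 3.66% of probes differed between the sets. KLF4 averaged 5.75 ± 0.37 in replicates 1 to 5 and 4.69 ± 0.37 in replicates 6 to 10 (SD, n = 5 each; limma adjusted p = 0.0257), also without overlap. For KLF3 and KLF10 the sets overlapped at 14 DPA, with differences of 0.45 and -0.04 that did not pass. The test between sets was added after the values were seen and was run at every time point. Its p-values are adjusted over probes and not over time points.

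Relative to its own day 0 arrays, KLF2 was higher at 14 DPA by 2.97 in replicates 1 to 5 and by 0.19 in replicates 6 to 10. The difference between these, 2.78 ± 0.32 (SE), had a limma adjusted p of 3.05e-04 for the interaction of set and time. KLF4 differed from day 0 by 0.89 in replicates 1 to 5 and by -0.57 in replicates 6 to 10 (interaction adjusted p = 0.00679 by limma). The pooled KLF2 rise of 1.58 at 14 DPA, the SD of 1.28 behind it, and the pooled KLF4 difference of 0.16 thus average unlike sets.

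Within replicates 1 to 5, whose codes did not change from 3 to 18 DPA, KLF2 averaged 11.73 at 14 DPA and 9.76 at 12 DPA. That increase of 1.97 ± 0.21 was called (SE, n = 5 each; limma adjusted p = 0.0425), and only 2 probes in all, 0.00998%, passed. The other was RASL11B, a small GTPase of the Ras family, higher by 1.79. KLF4 was higher by 0.83 and FOS by 2.82 in the same 5 against 5 arrays, neither of which passed (limma adjusted p = 0.238 and 0.135). In replicates 6 to 10, KLF2 at 14 DPA differed from 12 DPA by -0.17, KLF4 by 0.02 and FOS by 0.00, and 0% of probes passed by limma, with 1318 probes at an unadjusted p under 0.05. FOS at 14 DPA averaged 10.36 ± 0.56 in replicates 1 to 5 and 7.90 ± 0.57 in replicates 6 to 10 (SD, n = 5 each; limma adjusted p = 0.00678), and NR4A1 averaged 5.30 and 4.33 (limma adjusted p = 0.0283). What the codes stand for is not stated, so any cause that differs with them cannot be told apart from the set.

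Other gene lists differed between the sets at 14 DPA as well. How often lists of other genes would separate the sets in this way was not computed. The mean over 9 macrophage markers was 7.55 to 8.61 per array in replicates 1 to 5 and 8.82 to 10.13 in replicates 6 to 10, without overlap. The mean over 14 epidermal barrier genes was 10.20 to 10.46 in replicates 1 to 5 and 9.87 to 10.18 in replicates 6 to 10, without overlap, and that over 11 immediate early genes was 6.99 to 7.51 and 6.13 to 6.70. The mean over the 11 other genes of the KLF and SP family was 5.81 to 5.93 in replicates 1 to 5 and 5.67 to 5.78 in replicates 6 to 10, also without overlap. The endothelial, lymphocyte, neutrophil, erythrocyte, muscle and fat cell markers overlapped, as did the lists of KLF cofactors, the ERK5 and MEF2 route, TGF-beta signaling, reprogramming partners and the cell cycle. The part of macrophage or epidermal content in the KLF2 and KLF4 values was not tested.

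The interaction of set and time against day 0 was examined at all 19 times, and 9 of the 76 values for the KLF probes passed, where 5.22% of all values did. They were those of KLF2 at 3, 4 and 14 DPA, KLF3 at 3 DPA, KLF4 at 3, 4, 9 and 14 DPA and KLF10 at 10 DPA. Of all probes 9.91%, 12.3%, 7.71%, 8.63% and 6.59% passed this test at 3, 4, 9, 10 and 14 DPA. The share was higher still at 7 DPA, at 13%, and it was 12.2% at 5 DPA, times at which no KLF probe passed. In the 8 values for KLF2, KLF3 and KLF4, replicates 1 to 5 stood higher relative to their own day 0 than replicates 6 to 10 did. KLF10 at 10 DPA ran the other way, differing from day 0 by -0.15 in replicates 1 to 5 but by 1.03 in replicates 6 to 10. At day 0 itself, replicates 1 to 5 averaged lower than replicates 6 to 10 for KLF2, KLF3 and KLF4. The means were 8.75 and 9.15 for KLF2, 4.27 and 4.51 for KLF3, and 4.85 and 5.26 for KLF4. The 8 values include these gaps and so are not independent of each other. No KLF probe passed at 0.5, 1, 1.5 or 2 DPA, and of all probes 0.00499%, 0.02%, 0% and 0% did by limma, with 1149, 1427, 1840 and 1741 probes at an unadjusted p under 0.05. From 2 to 3 DPA, where 5.12% of probes differed between the sets, KLF3 changed by 0.48 in replicates 1 to 5 and by -0.09 in replicates 6 to 10 (interaction adjusted p = 0.0302 by limma).

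The counts of calls carried this split. Over the 19 comparisons with day 0 and all probes, 11.6% of tests were called up and 9.55% down in replicates 1 to 5, and 8.05% up and 6.99% down in replicates 6 to 10. KLF2 rose in 16 of 19 in replicates 1 to 5, compared with 5 for replicates 6 to 10, and KLF3 in 17 and 10. KLF4 rose in replicates 1 to 5 at 0.5, 7, 14 and 16 DPA. In replicates 6 to 10 it rose at 0.5 DPA alone and fell at 1.5, 2, 3, 4, 9 and 12 DPA. KLF10 rose in 4 comparisons and fell in 2 in replicates 1 to 5, and rose in 9 and fell in none in replicates 6 to 10. At day 0 KLF10 averaged 10.04 in replicates 1 to 5 and 9.35 in replicates 6 to 10, a difference between the sets that did not pass (limma adjusted p = 0.137). All 19 comparisons of a set use its own day 0 arrays, so the counts carry the day 0 gaps between the sets.

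Variation among time points was also tested within the 4 spans that share codes, with the replicate set as a covariate. All 4 genes varied from day 0 to 2 DPA, where 40% of probes did. From 3 to 9 DPA, where 20.5% of probes varied, KLF4 (limma F test, adjusted p = 1.07e-05), KLF2 (adjusted p = 1.03e-04) and KLF3 (adjusted p = 0.00638) did, and KLF10 did not pass (adjusted p = 0.278). From 10 to 18 DPA, where 20.1% of probes varied, none of the 4 passed, with adjusted p of 0.166 to 0.605. The fit holds the same course over time for both sets, and KLF2 and KLF4 differed between the sets at 14 DPA. A change in replicates 1 to 5 alone, such as that of KLF2 from 12 to 14 DPA, is averaged with the other set. From 20 to 28 DPA, where 13.6% varied, KLF10 passed (limma adjusted p = 8.59e-05) and the others did not, at 0.062 to 0.303.

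KLF10 was called below its day 0 level at 24 DPA, and the replicate sets contributed unequally. Its lowest, median and highest intensities were 8.81, 9.06 and 9.27 at 24 DPA, against 8.58, 9.86 and 10.37 at day 0. All 10 arrays at 24 DPA lay under the day 0 median, and the groups overlapped at the low end. The difference was -0.66 ± 0.18 (SE; limma adjusted p = 0.0042), in a comparison where 9.3% of probes fell. Replicates 1 to 5 carried the same codes at 20 to 28 DPA as at day 0, and in them KLF10 was lower by 1.06 at 24 DPA (limma adjusted p = 2.41e-05) and by 0.72 at 26 DPA (limma adjusted p = 0.00291). In those comparisons 9.89% and 9.92% of probes fell. In replicates 6 to 10 it differed from day 0 by -0.26 at 24 DPA (limma adjusted p = 0.477) and by -0.14 at 26 DPA (limma adjusted p = 0.73), and passed at neither. The codes of replicates 6 to 10 at these times were not those of day 0. The day 0 mean of replicates 1 to 5, 10.04, lay above that of replicates 6 to 10, 9.35, and the interaction of set and time at 24 DPA did not pass (limma adjusted p = 0.15).

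In replicates 1 to 5 KLF3 was up at all 5 late times, by 0.72 to 1.17, where the share of probes that rose was 13.2%, 13.6%, 15.3%, 13.3% and 13.6% at 20, 22, 24, 26 and 28 DPA. KLF2 was higher by 1.01 at 26 DPA (limma adjusted p = 0.0324) and by 0.93 at 28 DPA (limma adjusted p = 0.0351), and did not pass at 20, 22 or 24 DPA. KLF4 passed at none of these times, with differences of -0.30 to 0.18. In replicates 6 to 10 KLF3 was higher by 0.54 to 0.88 and missed the threshold at 28 DPA alone (limma adjusted p = 0.0591). KLF2 in replicates 6 to 10 differed from day 0 by 0.05 at 26 DPA (limma adjusted p = 0.869) and 0.36 at 28 DPA (limma adjusted p = 0.268). With both sets pooled, the KLF2 difference was 0.53 at 26 DPA, which did not pass (limma adjusted p = 0.0549), and 0.65 at 28 DPA, which did (limma adjusted p = 0.0174). KLF2 had its lowest mean of the series at 22 DPA, 8.69 ± 0.45 (SD, n = 10), beside 8.95 ± 0.48 at day 0, a difference of -0.26.

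Arrays of the same time point and set that were high for KLF2 tended to be high for KLF3 and KLF4. After the mean of each time point and replicate set was removed, the deviations of KLF2 and KLF4 over 198 arrays correlated at r = 0.47 (rho = 0.44). Without the 2 arrays most extreme for KLF2, r was 0.42. KLF2 and KLF3 correlated at r = 0.44 (rho = 0.42), and 0.39 without those arrays. KLF3 and KLF4 correlated at r = 0.33 (rho = 0.27), and 0.30 without the 2 arrays most extreme for KLF3. Adjusted over the 6 pairs, the permutation p for r was 3e-05 for KLF2 with KLF3 and for KLF2 with KLF4. Their raw p was 1e-05, the smallest that 100000 permutations can give. For KLF3 and KLF4 it was 1e-04, from a raw p of 5e-05. The permutations test each pair against no correlation. How many other pairs of probes reach such an r between these arrays was not computed.

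No correlation with KLF10 passed. Its deviations gave r = 0.15 with KLF2, 0.12 with KLF3 and -0.03 with KLF4 (permutation adjusted p = 0.0881, 0.157 and 0.673). In replicates 1 to 5 alone KLF2 and KLF3 correlated at 0.50, KLF2 and KLF4 at 0.51 and KLF3 and KLF4 at 0.40. Replicates 6 to 10 alone gave 0.38, 0.45 and 0.28 for the same pairs. By rank, KLF3 and KLF4 did not pass in replicates 6 to 10 (rho = 0.19, permutation adjusted p = 0.182). Within the 4 spans that share codes, r was 0.31 to 0.54 for KLF2 and KLF3 and 0.28 to 0.62 for KLF2 and KLF4. For KLF3 and KLF4 it was 0.10 to 0.45. Both of these pairs with KLF4 were lowest at 20 to 28 DPA. Pairs with KLF10 gave -0.09 to 0.37. The values by span were not tested. Over the 20 time point means, which share codes and arrays' sets and so serve as a description, r was 0.71 for KLF3 and KLF4, 0.55 for KLF2 and KLF10, 0.54 for KLF2 and KLF4, 0.43 for KLF2 and KLF3, 0.25 for KLF4 and KLF10 and -0.02 for KLF3 and KLF10.

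The genes with the most similar time course differed for each factor. They were sought by Pearson's r over the 20 time point means, among 2361 genes whose means spanned at least 1 log2 unit. KLF2 was most like FOS (r = 0.93), PLK3, a stress-response kinase (0.87), F2RL1, the protease-activated receptor PAR2 (0.86), JUNB, an AP-1 subunit (0.85), and TREX2, an exonuclease (0.82). KLF4 was most like PTGS2, the inducible cyclooxygenase (0.90), COQ10B, a coenzyme Q binding protein (0.86), NR4A1 (0.84), TXNRD1, thioredoxin reductase (0.84), and ADAMTS1, a secreted metalloproteinase (0.81). By rank the likeness to KLF4 was lower, with Spearman's rho of 0.43 for PTGS2, 0.50 for COQ10B, 0.69 for NR4A1, 0.40 for TXNRD1 and 0.26 for ADAMTS1, each of which had its highest mean at 0.5 DPA as KLF4 did. For the 5 genes most like KLF2, rho was 0.74 to 0.92. The mean of FOS was 10.55 at 0.5 DPA and 10.90 at 7 DPA, against 6.58 at day 0, and that of PTGS2 was 5.12 and 4.44, against 3.88 at day 0.

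KLF3 was most like CCNL2, a cyclin of RNA processing (0.87), PHLDA2, a growth-restraining protein of the mouse placenta (0.86), DEDD2, a death effector domain protein (0.85), RASSF1, a Ras-association protein (0.79), and BMP2, a bone morphogenetic protein (0.79). KLF10 was most like GADD45G, a growth arrest and DNA damage-inducible gene (0.96), NFKBIA, the inhibitor of NF-kappaB (0.95), FGL2, a fibrinogen-like protein (0.92), OLFM4, an olfactomedin (0.92), and MMP19, a matrix metalloproteinase (0.91). The rho values were 0.44 to 0.72 for the 5 genes with KLF3 and 0.92 to 0.97 for those with KLF10. The KLF10 course was common, with 104 probes at r over 0.8, against 5 for KLF2, 6 for KLF4 and 3 for KLF3 among the 2698 probes searched.

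The same pairs were then examined between arrays of the same time. After removal of time point and set means, KLF2 and FOS correlated at r = 0.71 over 198 arrays (rho = 0.70). Without the 2 arrays most extreme for KLF2, r was 0.70. Each set alone gave a similar r, 0.68 for replicates 1 to 5 and 0.75 for replicates 6 to 10. The permutation p of 1e-05, the smallest that 100000 permutations can give, was 2.5e-05 after adjustment over 20 such relations. KLF2 with F2RL1 gave r = 0.55 and with PLK3 0.53, and KLF4 with NR4A1 gave 0.47. KLF10 with MMP19 (r = 0.03, permutation adjusted p = 0.722), KLF4 with TXNRD1 (r = 0.08, permutation adjusted p = 0.473) and KLF4 with ADAMTS1 (r = 0.15, permutation adjusted p = 0.105) did not pass. Here too, no r was computed for other pairs of probes as a background.

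**Figure D4:**
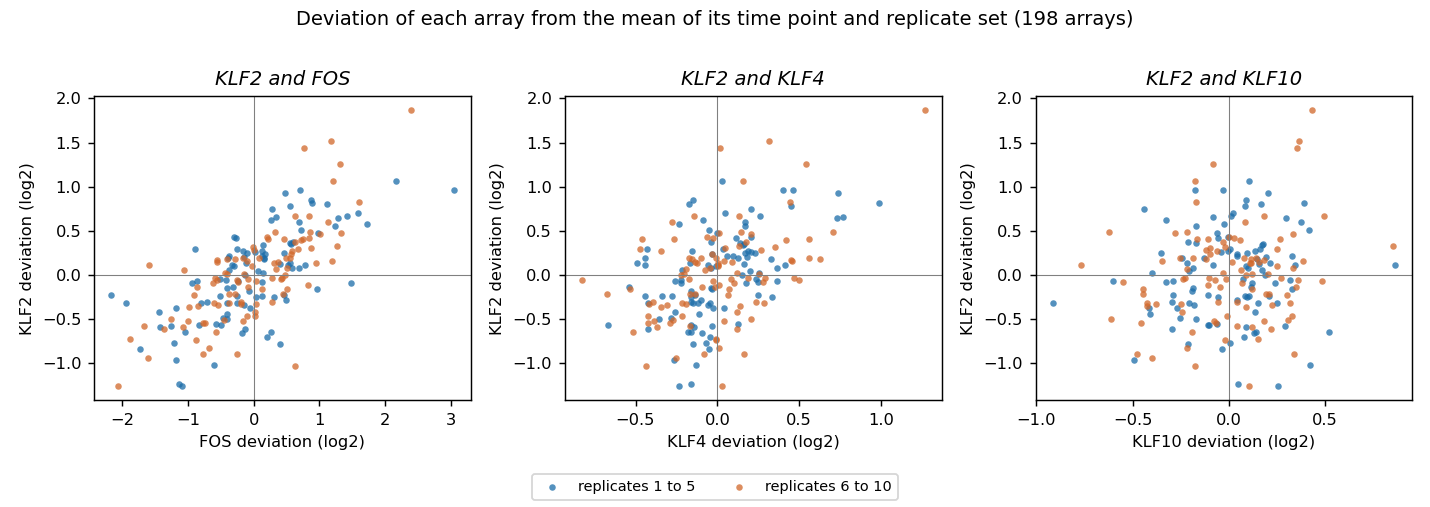
Deviation of each of 198 arrays from the mean of its time point and replicate set, in log2 units, for KLF2 (vertical) against FOS, KLF4 and KLF10 (horizontal), coloured by replicate set. The points follow a rising band for FOS (r = 0.71), a looser one for KLF4 (r = 0.47) and no clear band for KLF10 (r = 0.15).

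No other Krüppel-like or SP gene was called at 0.5 DPA. The array has 12 further probes for 11 genes of the family, with a median difference of 0.07 over the 11 genes. Since the study picked its KLF genes by their early increase on these samples, this contrast follows from that choice and is not separate evidence.

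A KLF5 probe, axo07544-r_at, moved later. KLF5 promotes proliferation of epithelial cells in mammals. The probe averaged 12.03 ± 0.19 at 28 DPA (n = 9), against 10.94 ± 0.27 at day 0 (SD, n = 10), without overlap, and was called higher at all 10 times from 10 to 28 DPA. The second KLF5 probe was not called in any comparison, so the KLF5 result rests on 1 of 2 probes. That second probe averaged 4.64 at day 0 and 4.88 at 28 DPA, a low signal that can understate a change.

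KLF13, known in mammals in T cells and the heart, fell in 8 comparisons, at 5, 7, 12, 14, 16, 20, 22 and 24 DPA. At these times 8.54% to 9.46% of all probes fell. The 8 comparisons use the same day 0 arrays, so they are not independent. KLF13 averaged 4.36 ± 0.30 at 20 DPA and 5.31 ± 0.96 at day 0 (SD, n = 10 each), with overlap, and the difference was -0.95 (limma adjusted p = 0.0123). KLF11, like KLF10 a TGF-beta inducible gene in mammals, was higher at 10 and 20 DPA, and at 0.5 DPA it differed from day 0 by -0.52 (limma adjusted p = 0.0764). SP3, a relative of the general activator SP1, was higher in 5 late comparisons, by at most 0.62. KLF6, KLF12, KLF15, SP1, SP2, SP4 and SP7 were called in none. Apart from SP4, at 6.23, their probes had day 0 means of 3.59 (SP1) to 4.84 (SP7), below the median of every array. Low signals can understate a change, so the lack of a call is weak evidence for these probes at any time.

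**Figure D5:**
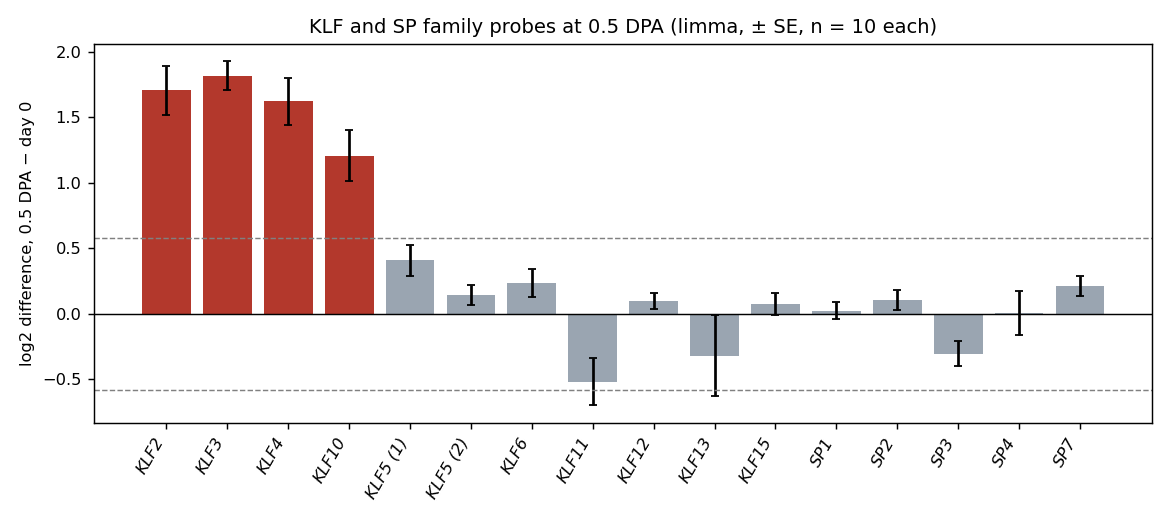
Log2 difference between 0.5 DPA and day 0 for the 4 KLF probes (red) and the 12 other probes of the KLF and SP family (grey), with the limma SE as bars and n = 10 arrays per group. The red bars reach 1.21 to 1.82, and no grey bar passes the dashed line at 0.58 in either direction.

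Partners and targets of these factors were counted at 0.5 DPA, where 2.8% of probes rose, 1.35% fell and the median difference over all probes was -0.01. Each count covers only the listed genes that had a probe. Of the immediate early genes 10 of 11 rose and none fell, with a median of 0.84. FOS was higher by 3.97, ZFP36 by 3.37 and EGR1 by 3.30. Of the listed partners of KLF4 in reprogramming and pluripotency, most had no probe. Among the 5 that did, 3 rose and 1 fell. SALL4, a zinc finger factor of stem cells, was higher by 2.26 and TFCP2L1, a factor of naive pluripotency, by 1.18, while MYCN, a MYC family oncogene, differed by -1.61. The study had named FOS, EGR1 and SALL4 as increasing and MYCN as decreasing early on these samples. Their directions here are therefore not independent evidence. Of genes that brake or drive the cell cycle, on which KLF4 and KLF10 act in mammals, 5 of 13 rose and 2 fell. GADD45B was higher by 2.48 and GADD45G by 2.12, both growth arrest genes, and MDM2, a ubiquitin ligase for p53, by 1.40.

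Genes of TGF-beta signaling, the pathway for which KLF10 is an early target, rose in 2 of 13 cases, with TGIF1, a repressor of SMAD transcription, higher by 2.76 and TGFB1, a ligand, by 0.89. Of genes of the epidermal barrier, where KLF4 acts in mammals, 4 of 14 rose and none fell. TGM1, a crosslinking enzyme of the cornified envelope, was higher by 4.18, GRHL3, a factor of epidermal differentiation, by 1.04 and CLDN7, a tight junction protein, by 1.00. No member was called among 14 cofactors such as CTBP1 or among 6 genes of the ERK5 and MEF2 route, which induces KLF2 in mammalian endothelium.

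Markers of cells in the tissue were read in the same arrays. None of 12 endothelial or 3 lymphocyte markers, of cell types in which KLF2 is abundant in mammals, was called at 0.5 DPA, and their medians were -0.11 and 0.09. The mean over the endothelial markers ranged from 4.83 to 5.72 per array at 0.5 DPA and from 5.26 to 5.85 at day 0. That over the lymphocyte markers was 4.61 to 5.10 at 0.5 DPA and 4.55 to 4.94 at day 0. These lymphocyte values lay below the median of every array. For every cell type read here, only part of the listed markers had a probe. Low signals can understate a change, so the lack of calls does not settle whether endothelial cells or lymphocytes changed in number. The 2 neutrophil markers CYBB (1.72) and NCF1 (0.85) of 3 rose, as did 1 of 9 macrophage markers, SPI1 (0.78), and 1 of 3 erythrocyte markers, ALAS2 (1.15). The mean over the neutrophil markers was 6.06 to 7.16 per array at 0.5 DPA and 5.31 to 5.88 at day 0, without overlap. Of 13 muscle genes none was called, with a median of -0.41, and of 4 fat cell genes LEP was higher by 5.18 and ADIPOQ differed by -0.86. The part of cell composition in the KLF values was not tested.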

How the data were processed

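RNA from single tissue samples was hybridized to an Affymetrix array for Ambystoma. The deposited values are log2 intensities per probe that the authors normalized by RMA in Affymetrix Expression Console (versions not given in the sources used here). RMA forces the arrays to 1 distribution, so a shift of all transcripts is not visible. Of 20080 probes, 45 controls were left out. Of the rest, 10951 have 1 symbol, 9084 have none and 0 have several. No genome was used here, so neither positions nor sequences are given. Arrays were checked for duplicates, and 0 pairs were identical.

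Groups came from the sample titles. At 0.5 DPA, 2 arrays have a source name with another time and were kept by title. Each comparison, later minus earlier, was fitted by limma 3.58.1 (lmFit, eBayes) in R 4.3.3 on the arrays of its time points. Limma took the place of the methods' t-test. Calls needed an adjusted p under 0.05 and a log2 difference of at least 0.58. The pipeline was tested on simulated data. Correlations used 100000 two-sided permutations within time point and set (numpy 2.4.6, scipy 1.17.1). Figures used matplotlib 3.10.9. Alternatives were other fits, tests, fold limits, filters, normalizations, covariates and subsets of arrays.

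The members, lists and tests were chosen with earlier results of these data known. The genes named are the KLF members, up to 3 called members per list with the largest difference at 0.5 DPA, the other KLF and SP genes, and the 5 genes with the most similar time course per member, 1 probe per gene. The other probes called at 7 DPA, and FOS and NR4A1 at 14 DPA, were chosen after the values were seen. So were the differences between the sets within a time point and the comparison of 14 with 12 DPA. The interactions of set and time at times other than 0.5 DPA were also chosen then.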

Additional observations from a re-analysis of the deposited data

Results flagged for a closer look

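In 1 of 80 groups of arrays (4 genes at 20 times) the most extreme array lay far from the rest. KLF4 at 1.5 DPA was 5.97 in replicate 2, against 4.32 to 4.93 in the other 9 arrays. Chance marks about 1 in 20 groups by this gap test.

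The change over time differed between replicates 1 to 5 and replicates 6 to 10 by the limma interaction test in 10 instances, given here as the change in replicates 1 to 5 minus that in replicates 6 to 10. Against day 0, KLF2 differed between the sets by 1.49 and 1.22 at 3 and 4 DPA, and by 2.78 at 14 DPA. For KLF4 it was 1.06 and 1.07 at 3 and 4 DPA, and 1.12 and 1.46 at 9 and 14 DPA. For KLF3 it was 0.54 at 3 DPA against day 0 and 0.57 from 2 to 3 DPA, an interval in which the codes changed in both sets. For KLF10 it was -1.18 at 10 DPA. Values against day 0 share the same day 0 arrays of each set and are not independent. The share of all probes that passed was 5.12% from 2 to 3 DPA and 6.59% at 14 DPA against day 0.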

How the results depend on the processing

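The rise of the 4 genes at 0.5 DPA kept its direction and its call under every alternative tried with 1 exception: limma treat, which tests against the 1.5-fold limit itself and was chosen after seeing the data, gave KLF10 1.21 with an adjusted p of 0.131. Without any 1 array of 0.5 DPA or day 0 all 4 genes were called, with differences of 1.64 to 1.79 for KLF2, 1.77 to 1.87 for KLF3, 1.54 to 1.69 for KLF4 and 1.09 to 1.28 for KLF10. Leaving out the 2 arrays with a conflicting source name also changed none of these calls. Of 542 values computed again for the changes at 0.5, 1, 2, 5, 7 and 9 DPA, the counts, the lists and the correlations, 4 changed direction, all for KLF10 and passing in neither setting. They were 2 against 0.5 DPA (0.0076 in replicates 1 to 5), 7 against 5 DPA (-0.045 with array weights and -0.095 in replicates 6 to 10) and the correlation with KLF4 (0.011 in replicates 1 to 5). The median of the KLF cofactors, near 0, also changed sign, at -0.0097 with all probes of a gene averaged. Differences from day 0 at other times were not among these values, and some turned with the replicate set, as for KLF4 at 14 DPA (0.16 with both sets, -0.57 in replicates 6 to 10) and KLF10 at 10 DPA (0.44 with both sets, -0.15 in replicates 1 to 5).

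The number of 19 comparisons with day 0 passed moved with the fold limit and the replicate set. A 2-fold limit gave 8 for KLF2, 4 for KLF3 and 4 for KLF10, and no fold limit gave 4 for KLF4. Replicates 6 to 10 alone gave 5 for KLF2, 10 for KLF3 and 7 for KLF4 in either direction, and replicates 1 to 5 alone gave 4 for KLF4. The fall of KLF2 between 0.5 and 2 DPA was -0.76 and lost its call with a 2-fold limit and in the fit of all arrays (limma adjusted p = 0.0545), and was -0.46 in replicates 6 to 10 (limma adjusted p = 0.476). The KLF2 difference at 7 DPA against 5 and 9 DPA gained a call in the fit of all arrays and by the methods' t-test before adjustment (1.23 in both) and with array weights (1.34, limma adjusted p = 0.0461). The KLF4 difference there was 0.80 and lost its call at a 2-fold limit, and was 0.63 in replicates 1 to 5 (limma adjusted p = 0.687), while replicates 6 to 10 kept it at 0.97 (limma adjusted p = 0.00622). The cause of these moves was not tested.

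Deviations of same-numbered arrays at 0.5 DPA and day 0 correlated above 0.1 in 6 of 10 pairs, and in 1 of 10 once the set mean was removed. This check cannot tell whether same-numbered samples share an animal, which the labels do not say. With the replicate number as a block KLF2, KLF3, KLF4 and KLF10 still rose at 0.5 DPA, 4 of 4 genes, and no other call of these genes changed.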
